A study of Mus musculus with 106 samples.

Results

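The comparison concerns the liver of CAST/EiJ males, 3 mice on a high-fat diet (HFD) against 3 on chow (CD), which are 6 of the 52 HFD and 54 CD libraries of the study. The libraries were chosen by their labels alone, and 14330 genes were measured in each. CAST/EiJ is an inbred strain derived from wild Mus musculus castaneus mice, and these animals carried no transgene and received no drug. Fat supplied 6% of the energy of the chow and 60% of that of the high-fat diet, carbohydrate 74% and 20%, and protein 20% of both. Feeding ran from 8 weeks of age until the livers were taken at 21 weeks, in the morning, after perfusion with saline buffer and removal of the gallbladder. Each library came from its own mouse. Females of the strain (3 on each diet) and males of 8 other inbred strains (WSB/EiJ, A/J, PWK/PhJ, DBA/2J, NZO/HlLtJ, C57BL/6J, NOD/ShiLtJ and 129S1/SvImJ, 22 on the high-fat diet and 24 on chow, with a single NZO/HlLtJ male on the high-fat diet) were used only to ask where the response of the CAST/EiJ males differed.

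The liver makes fat from dietary carbohydrate, makes cholesterol from acetyl-CoA and oxidises fatty acids that reach it. Genes of cholesterol synthesis are switched on by the transcription factor SREBP-2 when sterols in the endoplasmic reticulum are scarce, and are turned down when sterols are plentiful. Genes of peroxisomal and microsomal fatty acid oxidation are driven by the nuclear receptor PPAR-alpha, and many cytochrome P450 and conjugating enzymes by the xenobiotic receptors PXR and CAR.

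Gene counts summed to between 43516312 and 52373436 in the 6 libraries, and Pearson's r of log2 CPM (counts scaled to a common library total) between libraries of one diet, across genes, ran from 0.982 to 0.989. Hepatocyte markers were abundant in each (85121 to 99844 CPM for the 10 summed on chow, 103040 to 113910 on the high-fat diet). The Xist and Ddx3y levels of the 6 libraries matched the male label, and at least 1 library labelled female in another strain did not match its label but entered only the shared estimate of spread. Clock genes varied within the CD group. Dbp, a clock output gene, was at 2.27, 2.48 and 46.1 CPM in the CD mice and at 10.5, 7.39 and 9.99 CPM in the HFD mice, and Arntl, a core clock gene, at 25.3, 23.9 and 6.04 CPM on chow, so that CD mouse 3 stood apart in both, while in Per1, another core clock gene, at 14.3, 66.9 and 61.3 CPM, CD mouse 1 did. The 10 most counted genes took 14.7% to 15.9% of counts on chow and 16.7% to 17.4% on the high-fat diet, without overlap. Mice of the strain and sex on different diets had separate ranges of animal numbers, so that cohort and diet cannot be told apart.

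On the high-fat diet 262 genes were higher and 357 lower, 619 in all or 4.32% of the genes tested (1.83% higher and 2.49% lower; edgeR quasi-likelihood test, adjusted p under 0.05). Of these, 87 rose and 126 fell at least 2-fold, and in 576 the 3 HFD values did not overlap the 3 CD values, as was so for 22.4% of all genes. The median log2 fold change of all genes was 0.01, and the median absolute log2 fold change of the 619 was 0.79. Scaling by library size alone gave 162 higher and 384 lower. The number called depended on single mice: leaving out HFD mouse 3, 1 or CD mouse 3 or 2 lowered it to 131, 273, 245 and 336.

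**Figure D1:**
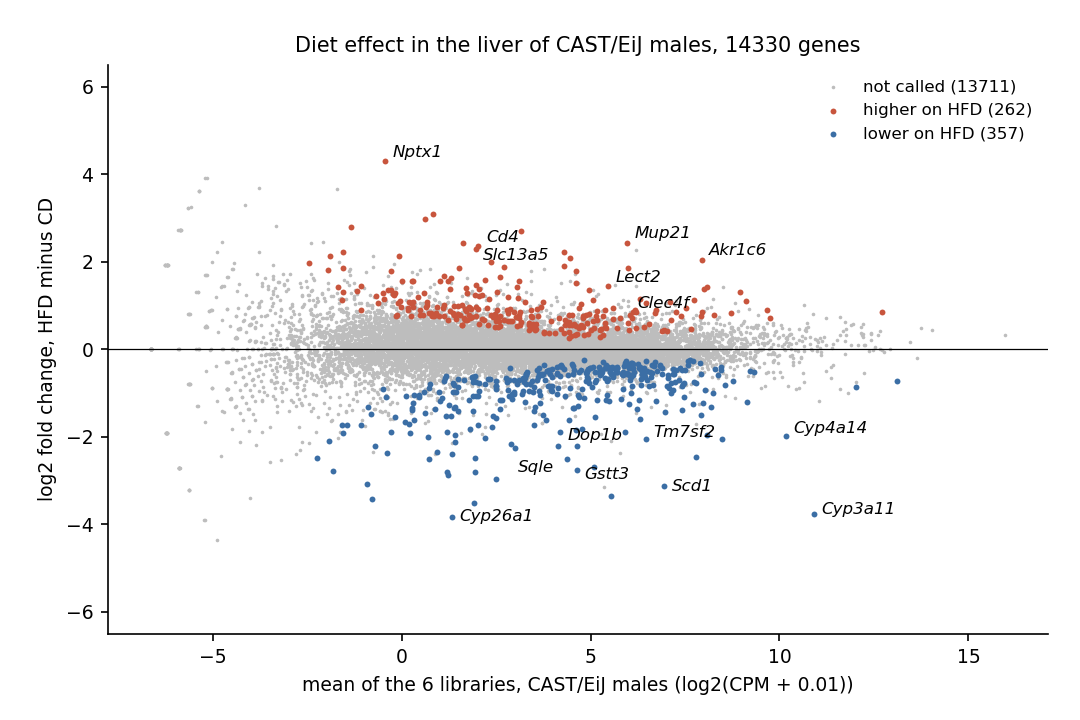
Each point is 1 of the 14330 genes, with its mean over the 6 libraries of CAST/EiJ males on the x axis, as log2(CPM + 0.01), and the fitted log2 fold change (HFD minus CD) on the y axis. Red points are the 262 genes called higher and blue points the 357 called lower, and Cyp3a11 stands out among abundant genes with a log2 fold change of -3.78.

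The smallest adjusted p belonged to Dop1b (ENSMUSG00000022946, chromosome 16, 93711904 to 93810590, plus strand, GRCm38), which encodes a large protein of the endosomal and Golgi trafficking family of yeast Dop1. It was at 28.7, 30.9 and 27.4 CPM on chow and at 6.42, 6.58 and 5.90 CPM on the high-fat diet. The spread within each diet was small against the gap between them, and the fitted log2 fold change came to -2.20 ± 0.23 (SE, n = 3 against 3; edgeR adjusted p = 2.09e-10). Dop1b kept its call without any of the 6 mice. Annotated transcripts overlap it on the opposite strand (2310043M15Rik and Gm30881), and whether counting used strand is not given in the sources used here.

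The next was Cyp3a11 (ENSMUSG00000056035, chromosome 5, 145854426 to 145879964, minus strand), the main PXR-responsive cytochrome P450 of mouse liver. Its levels were 2674, 3451 and 4663 CPM on chow against 204, 241 and 342 CPM on the high-fat diet, a 13.7-fold difference without overlap. The fitted log2 fold change came to -3.78 ± 0.43 (SE; edgeR adjusted p = 4.3e-09). Cyp3a16, of the same gene cluster, was at 4.53, 7.63 and 8.54 CPM on chow and at 0.476, 0.575 and 0.752 CPM on the high-fat diet (edgeR adjusted p = 0.0202). Reads of such similar genes may be split between copies, so the share of each is uncertain. The call of Cyp3a16 was lost without CD mouse 3 or any 1 HFD mouse (highest adjusted p 0.0993).

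Part of the cholesterol synthesis list fell on the high-fat diet. Of 25 genes in the list, which also holds regulators, 12 fell and 0 rose, against 2.49% of all genes that fell, and the median log2 fold change was -0.98. The early and middle steps included Pmvk, phosphomevalonate kinase, at 7.87, 7.27 and 8.61 CPM on chow against 2.45, 3.30 and 2.52 CPM on the high-fat diet. Its fitted log2 fold change came to -1.52 ± 0.20 (SE; edgeR adjusted p = 1.33e-07). Sqle, squalene epoxidase, which catalyses a rate-controlling oxygenation, was at 38.9, 35.7 and 30.5 CPM on chow against 5.12, 6.28 and 7.05 CPM on the high-fat diet. That is a 5.70-fold difference (log2 fold change -2.51 ± 0.51, SE; edgeR adjusted p = 0.00122), and no HFD mouse came near the CD range.

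Among the sterol ring steps, Tm7sf2, a sterol C14 reductase, was at 115, 176 and 137 CPM on chow and at 27.8, 41.3 and 34.1 CPM on the high-fat diet. Its fitted log2 fold change came to -2.05 ± 0.27 (SE; edgeR adjusted p = 2.57e-07), and it overlaps Vps51. Cyp51, the lanosterol demethylase, which overlaps Akap9 on the opposite strand, was at 40.3, 42.9 and 30.9 CPM on chow and at 8.93, 9.99 and 12.9 CPM on the high-fat diet (log2 fold change -1.85 ± 0.37, SE; edgeR adjusted p = 0.00104). Pmvk, Sqle, Tm7sf2 and Cyp51 each kept the call when any 1 mouse was left out.

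Idi1, Msmo1, Mvd, Nsdhl, Dhcr7 and Hsd17b7 fell too, named here after their values were seen, with log2 fold changes from -1.97 to -0.91. Insig1, Stard4, Sc5d, Acat2 and Ebp had means near or above those on chow (log2 fold changes 0.07 to 0.63, none called), so that the fall covered part of the list. With 1 mouse left out, 7 to 10 members fell and 0 rose, with 7 without HFD mouse 1 or 3. In 15 members the HFD values lay under the CD values without overlap, against 10.1% of all genes. In 3 members they lay above without overlap, against 12.2% of all genes. The summed level of the list was 1386 to 1696 CPM on chow against 1048 to 1205 CPM on the high-fat diet.

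**Figure D2:**
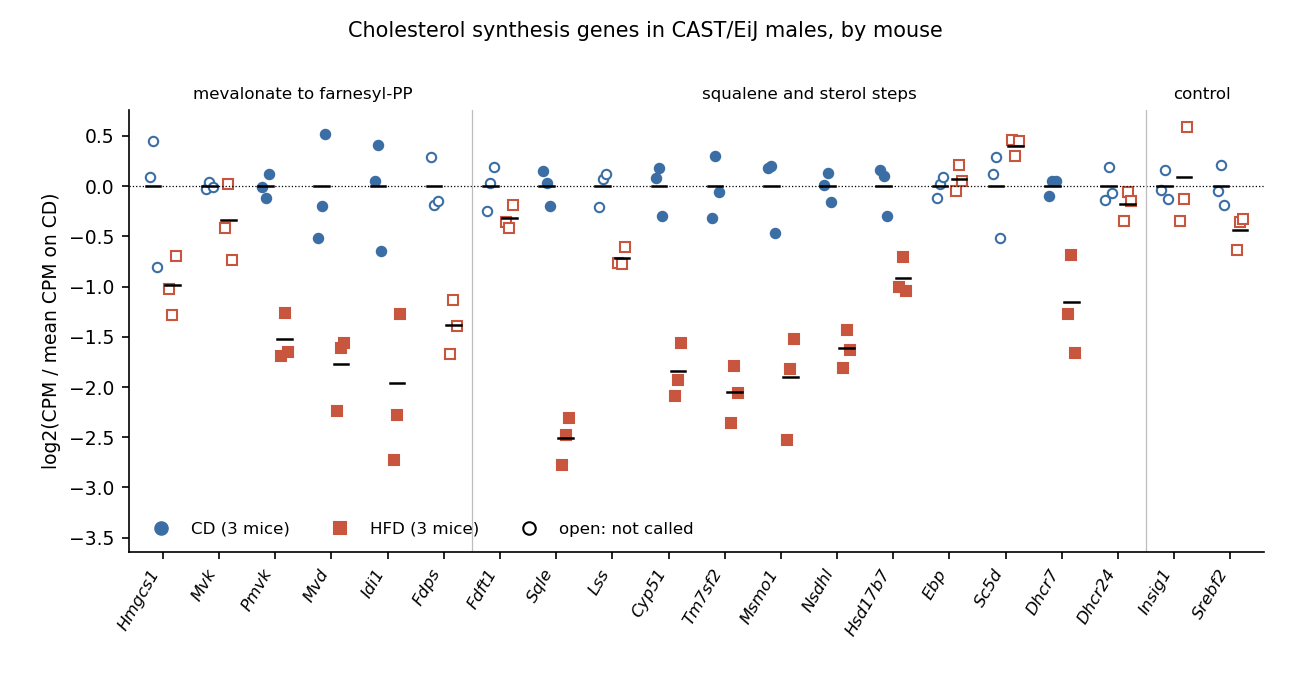
Points are single mice, plotted as log2 of the CPM over the mean CPM of the 3 CD mice (y axis) for 20 genes of cholesterol synthesis and its control in pathway order (x axis). Circles are CD and squares HFD mice, bars are group means, and open symbols mark genes that were not called. The squares of Sqle and Tm7sf2 lie far under the circles, and those of Ebp lie among them.

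Promoter windows of RefSeq on GRCm38.p6, from 250 bases before to 50 after the start of transcription, were available for 17 of the 25 genes. The CCAAT box (CCAAT, searched on both strands), which binds NF-Y, a known partner of SREBP-2 at sterol promoters, was present in 16 of the 17. It was in 9 of 9 genes that fell and in 7 of 8 that were not called, against 41.1% of all 27025 genes with a window. The sterol regulatory element in the form TCACNCCAC was found in 1 of the 17, Hmgcs1, which was not called, and in 1.44% of all genes. Other forms of the element were not searched, so the count does not show that the remaining windows lack one. The windows of Tm7sf2 (chr19:6067801-6068100, minus strand) and Cyp51 (chr5:4104648-4104947, minus strand) are shown as examples of robust members, 5′ to 3′ along the gene, with the CCAAT box of either strand in capitals.
Tm7sf2: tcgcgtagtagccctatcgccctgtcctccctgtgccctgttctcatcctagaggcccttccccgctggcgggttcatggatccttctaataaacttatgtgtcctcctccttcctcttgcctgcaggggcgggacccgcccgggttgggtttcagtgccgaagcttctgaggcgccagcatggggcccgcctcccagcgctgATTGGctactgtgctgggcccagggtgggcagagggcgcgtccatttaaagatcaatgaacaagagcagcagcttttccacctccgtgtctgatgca
Cyp51: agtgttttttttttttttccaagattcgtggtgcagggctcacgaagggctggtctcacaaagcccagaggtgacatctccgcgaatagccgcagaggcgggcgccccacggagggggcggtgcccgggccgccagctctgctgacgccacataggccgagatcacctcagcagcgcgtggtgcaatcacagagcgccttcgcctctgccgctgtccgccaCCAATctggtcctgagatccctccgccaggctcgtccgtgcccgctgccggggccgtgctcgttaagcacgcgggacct
The box starts 47 bases before the start of transcription in Tm7sf2 and 29 bases before it in Cyp51. As the called and the uncalled members nearly all carried the box, it did not separate them.

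Some drug- and toxin-metabolising enzymes fell as well. Of 54 genes of the xenobiotic list 9 fell and 0 rose, against 2.49% of all genes that fell, with a median log2 fold change of -0.27. Besides Cyp3a11, they included Gstt3, a theta-class glutathione transferase (ENSMUSG00000001665, chromosome 10, 75774115 to 75781414, minus strand), which overlaps Gm20441. Gstt3 was at 22.4, 42.0 and 66.3 CPM on chow and at 5.36, 9.92 and 4.0 CPM on the high-fat diet, with a wide spread on chow and no overlap. Its fitted log2 fold change came to -2.76 ± 0.41 (SE; edgeR adjusted p = 2.71e-06). Cyp2c29, a CAR- and PXR-responsive P450, was at 449, 713 and 571 CPM on chow and at 130, 130 and 159 CPM on the high-fat diet (log2 fold change -2.05 ± 0.34, SE; edgeR adjusted p = 4.54e-05). Ces2a, a carboxylesterase, was at 245, 343 and 302 CPM on chow and at 129, 133 and 113 CPM on the high-fat diet (edgeR adjusted p = 1.33e-05). These 3 and Cyp3a11 kept the call without any 1 mouse. The others called were Gstt2, Cyp1a1, Ces1d, Gstm1 and Cyp1a2, of which all but Cyp1a2 are named after their values were seen. Cyp1a2, which metabolises caffeine, lost its call without CD mouse 2 or any 1 HFD mouse (highest adjusted p 0.359).

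The receptors themselves, Nr1i2 (PXR) and Nr1i3 (CAR), had log2 fold changes of -0.13 and -0.14 and were not called. Cyp2b10, the standard marker of CAR activity, was at or under 0.275 CPM in each of the 6 males, at most 14 counts in a library. The glutathione transferase, Cyp2c and Cyp3a families hold near-identical copies, and reads may be split between them. Counts for the list ranged from 6 to 12 genes lower when 1 mouse was left out, 6 without CD mouse 2.

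Genes of fatty acid oxidation were lower in part. Of 44 genes 6 fell and 0 rose, against 2.49% of all genes that fell, with a median log2 fold change of -0.18. Acot1, a cytosolic acyl-CoA thioesterase, was at 450, 525 and 317 CPM on chow and at 95.5, 143 and 92.6 CPM on the high-fat diet. Its fitted log2 fold change came to -1.96 ± 0.41 (SE; edgeR adjusted p = 0.0017), and its reads may be shared with Acot2. Pex11a, which promotes peroxisome division, was at 297, 384 and 392 CPM on chow and at 103, 140 and 134 CPM on the high-fat diet (log2 fold change -1.51 ± 0.31, SE; edgeR adjusted p = 0.00125). Both kept the call without any 1 mouse.

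Cyp4a14, a fatty acid omega-hydroxylase, was at 2267, 2268 and 999 CPM on chow and at 347, 905 and 157 CPM on the high-fat diet. The lowest CD mouse and the highest HFD mouse were close, and the adjusted p of 0.00661 rose to as much as 0.123 without HFD mouse 1 or 3. Acot2 and Crat, named after their values were seen, fell too. Cpt1a, the gate to mitochondrial oxidation, was at 979 to 1342 CPM on chow and at 1147 to 1283 CPM on the high-fat diet (edgeR adjusted p = 0.904). Ppara itself had a log2 fold change of 0.11 and was not called. With 1 mouse left out, 3 to 8 genes of the list fell, 3 of them without CD mouse 2, HFD mouse 1 or HFD mouse 3.

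In the fat synthesis list, which also holds the sterol-regulated Tmem97, 5 of 26 genes fell and 1 rose, against 2.49% and 1.83% of all genes. Scd1, the desaturase that makes oleate, was at 257, 204 and 202 CPM on chow and at 31.7, 22.3 and 21.6 CPM on the high-fat diet, an 8.75-fold difference. Its adjusted p was 0.0189 (edgeR), and without HFD mouse 1, 2 or 3 it missed the threshold (highest 0.130). Me1, malic enzyme, which supplies NADPH for fat synthesis, fell from 112, 139 and 105.9 CPM to 39.4, 44.0 and 35.9 CPM (log2 fold change -1.58 ± 0.25, SE; edgeR adjusted p = 1.33e-05). Tmem97, a sterol-regulated membrane protein, fell with a log2 fold change of -1.05 ± 0.17 (SE; edgeR adjusted p = 2.76e-05), and Me1 and Tmem97 kept their calls without any 1 mouse. Dgat1, the last enzyme of triglyceride synthesis, and Acacb, the mitochondrial acetyl-CoA carboxylase (named after its values were seen), were the others. The call of Dgat1 was lost without CD mouse 3 or HFD mouse 3 (highest adjusted p 0.0926).

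The gene of the set that rose was Mlxipl, which encodes the carbohydrate-response factor ChREBP. It was at 110, 102 and 115 CPM on chow and at 193, 163 and 234 CPM on the high-fat diet (edgeR adjusted p = 0.0126, lost without CD mouse 2 or HFD mouse 3, highest 0.157). Fasn, fatty acid synthase, was at 103 to 144 CPM on chow and at 65.6 to 81.1 CPM on the high-fat diet without passing the test (edgeR adjusted p = 0.234). Srebf1, which encodes SREBP-1, was at 36.4 to 150 CPM on chow and at 98.8 to 205 CPM on the high-fat diet, with overlap. Acaca, the cytosolic acetyl-CoA carboxylase, had a log2 fold change of -0.19 and was not called. Without HFD mouse 3 the set gave 2 lower and 0 higher, and without CD mouse 3 or HFD mouse 1 it gave 3 lower and 1 higher. Genes of lipid droplets gave 2 lower of 21, against 2.49% of all genes: Pnpla2, the triglyceride lipase, and Fitm2. The calls of both were lost without some single mice, Pnpla2 without CD mouse 3, HFD mouse 1 or 3 and Fitm2 without CD mouse 2 or HFD mouse 3 (highest adjusted p 0.129 and 0.0729). Plin2, which coats droplets in hepatocytes, was at 1393 to 2315 CPM on chow and at 877 to 1160 CPM on the high-fat diet (edgeR adjusted p = 0.161).

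**Figure D3:**
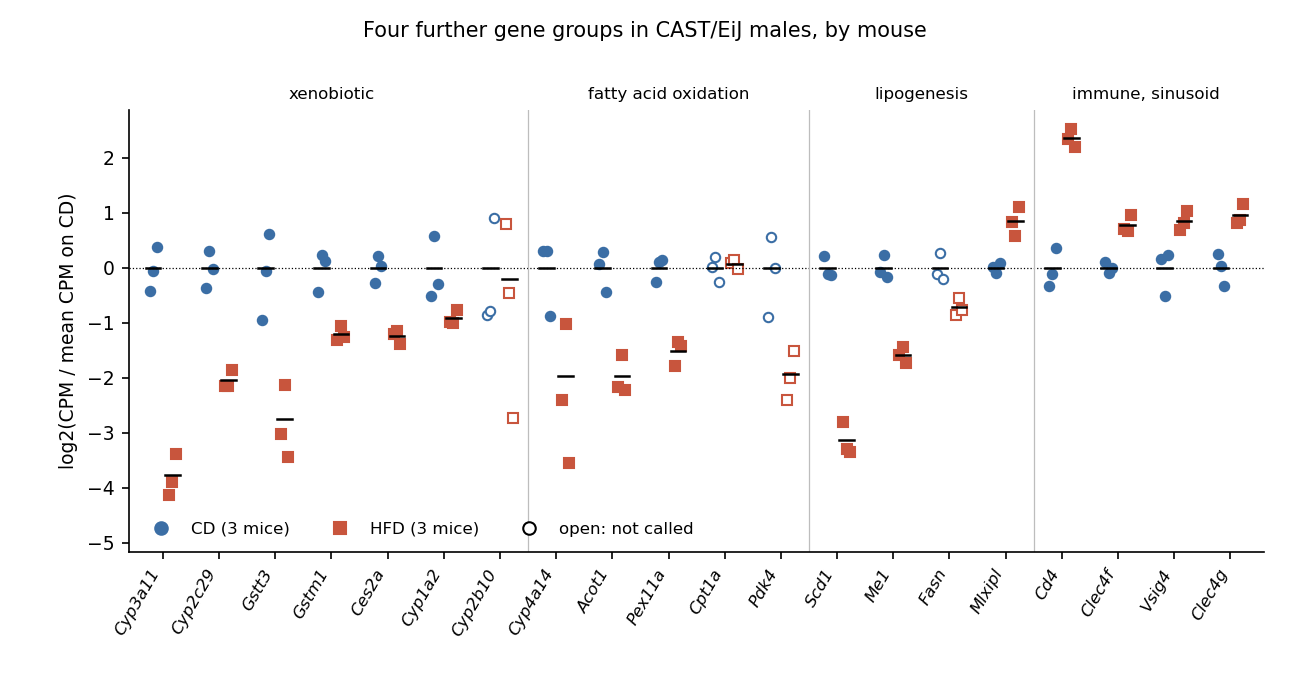
Points are single mice, as log2 of the CPM over the mean CPM of the 3 CD mice (y axis), for 20 genes in 4 groups (x axis). Circles are CD and squares HFD mice, bars are group means, and open symbols mark genes that were not called. Cyp3a11 and Scd1 lie lowest among the called genes on the high-fat diet and Cd4 highest, while Cpt1a lies at the level of chow.

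Several large falls lay outside these lists. Cyp26a1, which degrades retinoic acid and is induced by it, was at 2.88, 3.54 and 7.59 CPM on chow and at 0.549, 0.277 and 0.133 CPM on the high-fat diet, a 14.2-fold difference (edgeR adjusted p = 0.00255; 0.0509 without HFD mouse 3). Its promoter window (chr19:37697558-37697857, plus strand) holds a retinoic acid response element, searched on both strands as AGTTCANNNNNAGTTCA, which 0.03% of genes with a window carry, and it is shown with that element in capitals.
Cyp26a1: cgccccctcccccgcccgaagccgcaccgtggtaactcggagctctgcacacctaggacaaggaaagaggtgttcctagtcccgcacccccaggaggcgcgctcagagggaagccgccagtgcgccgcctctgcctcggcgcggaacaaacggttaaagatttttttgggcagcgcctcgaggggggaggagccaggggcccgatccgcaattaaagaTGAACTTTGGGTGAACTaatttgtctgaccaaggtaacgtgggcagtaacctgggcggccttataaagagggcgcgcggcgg
Mt1, metallothionein 1, was at 572, 351 and 204 CPM on chow and at 61.6, 102 and 42.0 CPM on the high-fat diet. Its adjusted p of 0.011 (edgeR) was lost without HFD mouse 1 or 3 (highest 0.122). Its window (chr8:94178839-94179138, plus strand) is shown with the cores of metal response elements, TGCGCNC or TGCACNC on either strand, in capitals. There are 3 of them, and 28.2% of genes with a window hold at least 1.
Mt1: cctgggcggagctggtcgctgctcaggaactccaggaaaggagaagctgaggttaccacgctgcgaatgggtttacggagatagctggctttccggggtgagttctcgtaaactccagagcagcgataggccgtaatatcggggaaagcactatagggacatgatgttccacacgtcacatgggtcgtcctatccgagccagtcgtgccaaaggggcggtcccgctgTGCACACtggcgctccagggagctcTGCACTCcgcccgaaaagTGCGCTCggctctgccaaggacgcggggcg
The matches are descriptions of the letters only, and no binding was measured.

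Defb1, a beta-defensin, was at 51.2, 34.2 and 92.3 CPM on chow and at 11.2, 12.0 and 4.22 CPM on the high-fat diet (log2 fold change -2.70 ± 0.47, SE; edgeR adjusted p = 0.000111). Bmp8b, a secreted BMP ligand that overlaps Oxct2b and, on the other strand, Ppie, fell from 3.94, 4.24 and 4.56 CPM to 0.860, 0.916 and 0.619 CPM (edgeR adjusted p = 0.00247). Abcc3, a basolateral exporter of bile acids and conjugates, fell from 121, 187 and 237 CPM to 65.4, 63.3 and 73.5 CPM (edgeR adjusted p = 5.58e-06). Tkt, transketolase of the pentose phosphate pathway, and Rrm2, a subunit of ribonucleotide reductase, had log2 fold changes of -0.84 and -1.53. Defb1, Bmp8b, Abcc3, Tkt and Rrm2 kept their calls without any 1 mouse. Ugt1a5 (log2 fold change -2.48), whose gene shares its last exons with the other Ugt1a genes, and Bmper (-2.36), an extracellular BMP regulator, fell but lost the call without HFD mouse 1 or 3 and without CD mouse 1 or HFD mouse 3, respectively (highest adjusted p 0.0993 and 0.0845). BC049987 (-3.43) rested on CD mouse 3, with 0.203, 0.360 and 2.58 CPM on chow against 0.0549, 0.192 and 0.0442 CPM on the high-fat diet. Its adjusted p of 0.0213 rose to as much as 0.573 without CD mouse 3, HFD mouse 1 or HFD mouse 3.

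Fewer of the large changes were rises. The highest fitted fold was that of Nptx1, a secreted pentraxin, at 0.0406, 0.148 and 0.0197 CPM on chow, which are 1 to 7 counts, and at 1.24, 1.32 and 1.59 CPM on the high-fat diet (edgeR adjusted p = 0.000181). Slc13a5, the citrate importer of the hepatocyte membrane, rose from 1.77, 1.27 and 0.924 CPM to 6.81, 7.71 and 4.75 CPM. Its fitted log2 fold change came to 2.28 ± 0.58 (SE; edgeR adjusted p = 0.0125), lost without CD mouse 2 or 3 (highest 0.0965). Akr1c6, a 17-beta-hydroxysteroid dehydrogenase, rose from 84.9, 91.8 and 110 CPM to 377, 336 and 474 CPM (edgeR adjusted p = 0.0233). It lost the call without any 1 mouse but HFD mouse 2 (highest 0.123).

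Other steroid and pheromone genes among the 12 rises named for their size were Hsd3b2 and Hsd3b3, which overlap Zfp697 on the opposite strand, and Mup21, a major urinary protein. Hsd3b2 was at 0.325, 0.339 and 0.374 CPM on chow and at 4.52, 1.11 and 2.52 CPM on the high-fat diet, and Mup21 at 13.4, 13.02 and 31.6 against 83.5, 130 and 100 CPM. Their adjusted p of 0.022 to 0.0348 was lost without most of the single mice, for Hsd3b2 any but HFD mouse 2, for Hsd3b3 any but CD mouse 3 and HFD mouse 2 and for Mup21 any (highest 0.159, 0.149 and 0.142). Acat3 (log2 fold change 1.90), an acetyl-CoA acetyltransferase that overlaps Tcp1 on the opposite strand, and Ntrk2 (2.00), a neurotrophin receptor, kept the call without all single mice but HFD mouse 3 (adjusted p 0.066 and 0.0888). Hectd2os (3.08), antisense to Hectd2, Adh6-ps1 (2.23) and Mup-ps21 (2.13) complete the 12, and the last 2 are pseudogenes whose reads may come from copies. They lost their calls without CD mouse 3 or HFD mouse 3, and Mup-ps21 also without CD mouse 2 or HFD mouse 1 (highest adjusted p 0.108, 0.206 and 0.0743).

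Secreted liver proteins gave 4 higher and 0 lower of 22, against 1.83% of all genes that rose. Ahsg, fetuin-A, an abundant plasma glycoprotein, rose from 4579, 5146 and 4779 CPM to 7257, 8877 and 9915 CPM (log2 fold change 0.84 ± 0.18, SE; edgeR adjusted p = 0.00197). Without any 1 mouse its adjusted p was still under the threshold, narrowly so without HFD mouse 3 (0.049995). Lect2, a hepatokine, was at 20.4, 28.9 and 21.5 CPM on chow and at 57.6, 53.5 and 81.0 CPM on the high-fat diet (edgeR adjusted p = 0.0094, lost without CD mouse 3 or HFD mouse 3, highest 0.105). F11, a clotting factor, and Angptl6 had log2 fold changes of 0.77 and 0.96. Without CD mouse 3 or HFD mouse 3 neither was called, F11 also not without CD mouse 1, CD mouse 2 or HFD mouse 1 (highest adjusted p 0.217 and 0.275). Without either of these mice 1 gene of the list was called.

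Some markers of cells other than hepatocytes rose with the diet. Of 23 markers of Kupffer cells and other macrophages 4 rose and 0 fell, against 1.83% of all genes that rose, with a median log2 fold change of 0.58, and 21 of the 23 had positive values. Clec4f, a lectin of Kupffer cells, was at 51.9, 45.2 and 47.8 CPM on chow and at 79.1, 76.3 and 93.7 CPM on the high-fat diet (edgeR adjusted p = 0.0224). Vsig4, a complement receptor of the same cells, was at 7.04, 4.39 and 7.39 CPM on chow and at 10.1, 11.1 and 12.8 CPM on the high-fat diet (edgeR adjusted p = 0.0238). Cd68 and Lyz2, lysosomal genes of macrophages, were called as well, at adjusted p of 0.0495 and 0.0398. Without CD mouse 2 or HFD mouse 3, 0 of the markers were called by edgeR, and without any other single mouse 1 or 2 were. The highest adjusted p with 1 mouse left out was 0.184 for Clec4f, 0.196 for Vsig4, 0.243 for Cd68 and 0.222 for Lyz2. Adgre1 (F4/80) was at 3.62 to 4.77 CPM on chow and at 5.13 to 7.38 CPM on the high-fat diet (adjusted p = 0.346). The summed level of the markers was 279 to 325 CPM on chow against 405 to 488 CPM on the high-fat diet. In whole liver more cells of a type and more RNA per cell cannot be told apart.

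Of 12 markers of the sinusoidal endothelium 2 rose and 0 fell, against 1.83% of all genes that rose. Both calls held without any 1 mouse, but in an edgeR fit of the CAST/EiJ libraries alone 0 of the 12 were called (adjusted p = 0.110 for Clec4g and 0.092 for Fcgr2b). That fit left 2 calls in fatty acid oxidation, 3 lower and 1 higher in fat synthesis, and 1 each among Kupffer markers, secreted liver proteins and lipid droplet genes. Clec4g was at 21.2, 18.1 and 14.0 CPM on chow and at 31.1, 32.4 and 39.6 CPM on the high-fat diet (log2 fold change 0.95 ± 0.17, SE; edgeR adjusted p = 0.000222). Fcgr2b, the inhibitory Fc receptor, was at 36.4 to 37.9 CPM on chow and at 55.1 to 63.1 CPM on the high-fat diet (edgeR adjusted p = 0.00528). Stab2, Lyve1 and Pecam1, defining markers of these cells, had log2 fold changes of 0.26, -0.08 and -0.05 and were not called. The summed level of the 12 was 379 to 458 CPM on chow against 498 to 550 CPM on the high-fat diet.

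Cd4, the co-receptor of helper T cells that some myeloid cells also carry (ENSMUSG00000023274, chromosome 6, 124864692 to 124888221, minus strand), rose in all 3 HFD mice. It was at 1.06, 1.23 and 1.69 CPM on chow and at 6.72, 7.64 and 6.10 CPM on the high-fat diet, a 5.13-fold difference (log2 fold change 2.36 ± 0.33, SE; edgeR adjusted p = 8.39e-07). It kept its call without any 1 mouse. Other T and NK markers were scarce: 9 of 15 were in the table, Cd3g averaged 0.0472 CPM on chow against 0.113 CPM on the high-fat diet, and Thy1 and Lck had log2 fold changes of 0.22 and -0.32. Of the 9, Cd4 alone was called. The summed level of the 9 was 2.65 to 3.03 CPM on chow against 7.83 to 9.16 CPM on the high-fat diet, and Cd4, with means of 1.33 and 6.82 CPM, made up most of that difference. Zap70, a kinase of T cell receptor signalling that was not in the list and overlaps Gm18828 on the opposite strand, rose from 2.64, 1.70 and 4.01 CPM to 8.14, 11.5 and 11.3 CPM (log2 fold change 1.89 ± 0.37, SE; edgeR adjusted p = 0.000689) and kept its call without any 1 mouse. Of 12 B and plasma cell markers 1 rose, against 1.83% of all genes, Igkc, an immunoglobulin light chain, at 1.77, 2.25 and 2.18 CPM on chow against 3.35, 9.26 and 4.47 CPM on the high-fat diet (edgeR adjusted p = 0.0403). Igkc lost its call without any 1 mouse but HFD mouse 1 (highest 0.27), and the summed level of the 12 was 9.20 to 11.3 CPM on chow against 17.4 to 34.3 CPM on the high-fat diet.

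Markers of stellate cells and matrix (28), neutrophils (10), bile ducts (7), red cells (6), white fat (4) and antigen presentation (7) gave 0 calls in the edgeR fit of all groups. In a fit of the 6 CAST/EiJ male libraries alone 4 of the 7 antigen presentation genes and 1 of the 28 matrix genes were called higher, as were 169 of all 14330 genes. At an unadjusted p under 0.05, which 18.5% of all genes had, the matrix list had 7 genes, antigen presentation 2, neutrophils and bile ducts 1 each, and the other 2 lists 0. Their positive values were in the majority in the matrix list (25 of 28), and Col1a1, a fibrillar collagen, was at 1.31 to 1.48 CPM on chow and at 2.12 to 2.79 CPM on the high-fat diet (edgeR adjusted p = 0.39). The part of these cells in the other changes was not tested.

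CAST/EiJ females on the same diets served as the nearest comparison, and no library was shared with the males. The animal numbers of the females lay in ranges apart from those of the males. Sex and whatever follows those numbers therefore cannot be told apart. Per1 was at 56.0 to 193 CPM in the 6 female libraries and at 14.3 to 66.9 CPM in the male ones, with overlap. Dbp was at 33.7 to 93.8 CPM in the females and at 2.27 to 10.5 CPM in the males other than CD mouse 3 (46.1 CPM). Arntl was at 2.02 to 4.17 CPM in the females other than CD mouse 1. In the males it was at 12.6 to 25.3 CPM, other than CD mouse 3 (6.04 CPM). Female CD mouse 1 stood apart in Arntl, at 24.95 CPM against 3.73 and 3.53 CPM in the other CD females. The part of these values in the comparison was not tested. In females 1869 genes passed the test (13% of those tested, 6.72% higher and 6.32% lower). Of the 619 genes called in males, 335 were called in females too, 333 of them in the same direction, which is 53.8% of the male calls and 17.8% of the female calls. In 597 of the 619 the sign was the same in both sexes. In the cholesterol list 9 genes fell and 0 rose in females, Sqle from 24.6, 20.6 and 19.0 CPM to 3.98, 3.68 and 3.98 CPM and Tm7sf2 from 104, 111 and 109 CPM to 20.0, 18.4 and 15.7 CPM. Among Kupffer markers 6 rose and 1 fell in females. Slc13a5 was in females at 0.937, 1.55 and 0.921 CPM on chow and at 5.12, 9.07 and 14.3 CPM on the high-fat diet.

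**Figure D4:**
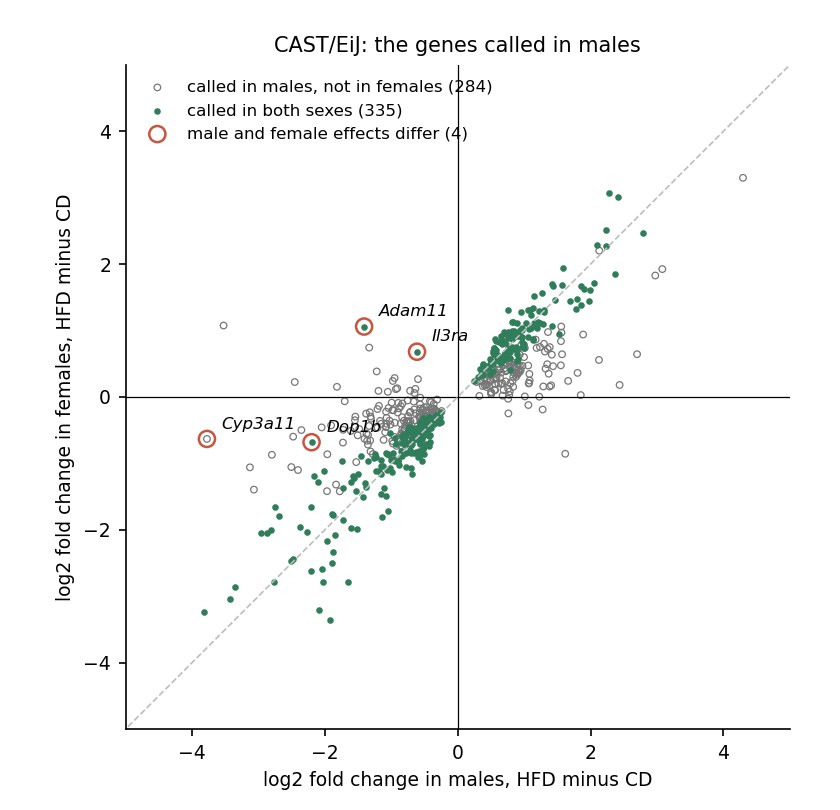
Each point is 1 of the 619 genes called in males, with the log2 fold change (HFD minus CD) in males on the x axis and in females on the y axis. Filled points (335) were called in females too and open points (284) were not, the dashed line marks equal effects, and ringed genes are the 4 among them whose male and female effects differ by the test of the difference.

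The test of the difference between the sexes called 5 genes (0.0349% of those tested), 4 with a more negative effect in males (0.0279%) and 1 with a more positive one (0.00698%), and 872 had an unadjusted p under 0.05 (6.09%). In Cyp3a11 the fall seen in males had no counterpart of that size in females, where the level was low on both diets: 114, 83.0 and 58.9 CPM on chow against 65.7, 27.2 and 71.9 CPM on the high-fat diet. The male effect minus the female effect was -3.14 on the log2 scale (edgeR adjusted p = 0.00536), and it passed without any 1 of the 12 mice. Dop1b fell in both sexes, in females from 55.4, 39.8 and 41.3 CPM to 33.7, 24.6 and 26.7 CPM, and the difference of -1.52 (edgeR adjusted p = 0.0222) was lost without 6 of the 12 mice taken singly (female CD mice 2 and 3, male CD mouse 2 and each male HFD mouse, highest 0.0976).

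Adam11, a catalytically inactive member of the ADAM family, went in opposite directions. It was at 21.6, 15.8 and 12.1 CPM on chow against 6.68, 7.28 and 4.64 CPM on the high-fat diet in males, and at 5.64, 4.92 and 3.53 CPM and 11.8, 9.31 and 8.26 CPM in females. The difference was -2.47 (edgeR adjusted p = 0.0121; 0.0976 without male HFD mouse 3). Il3ra, the interleukin-3 receptor alpha chain, did the same at low levels, 2.52 to 2.99 CPM on chow against 1.17 to 2.45 CPM on the high-fat diet in males, and 1.21 to 1.27 CPM and 1.70 to 2.30 CPM in females. Its difference of -1.29 (edgeR adjusted p = 0.0121) was lost without male HFD mouse 1 or 3 (highest 0.0976). Arhgef10, named after its values were seen, was the fifth gene, with a log2 fold change of 0.02 in males and -1.05 in females (edgeR adjusted p of the difference 0.0365). As the only gene with a more positive effect in males, it lost its call wherever 0 such genes passed. That was so without female CD mouse 1, female HFD mouse 2 or 3, male CD mouse 2 or any 1 male HFD mouse. It was also so with library size scaling. In a fit of the CAST/EiJ libraries alone 0 genes passed, with 540 at an unadjusted p under 0.05, and DESeq2 called 12. Library size scaling left 3 calls. Leaving out 1 mouse gave from 1 call (male HFD mouse 3) to 69 (female HFD mouse 1), and 2 or 3 without male HFD mouse 1 or male CD mouse 2, 8 to 10 without male CD mouse 1 or 3 or female CD mouse 2 or 3.

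Against the mean diet effect in males of the other 8 strains, 160 genes responded differently in CAST/EiJ males (1.12% of those tested, 0.468% or 67 genes with a more positive and 0.649% or 93 with a more negative effect). Of these, 136 were among the 619. The split depended on scaling, since library size alone gave 29 higher and 166 lower and moved the median difference of all genes to -0.10. In single-mouse deletions the number ranged from 29 without HFD mouse 3 to 215 without CD mouse 1, with 44 without CD mouse 3, 53 without HFD mouse 1 and 98 without CD mouse 2.

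Dop1b showed the smallest adjusted p here among the genes named. Its fitted log2 fold change came to -2.20 in CAST/EiJ and between -0.79 and 0.70 in the others, and the difference from their mean was -2.12 ± 0.24 (SE; edgeR adjusted p = 6.96e-09). Gstt3 had -2.76 in CAST/EiJ against -0.68 to 1.07 in the other strains (edgeR adjusted p of the difference 2.51e-05), and Defb1 -2.70 against -1.79 to 2.08 (0.000456). Defb1 averaged 59.2 CPM on chow in CAST/EiJ males, but only 0.231 to 7.26 CPM in males of the other strains. Its fall of -1.79 in DBA/2J was called too (edgeR adjusted p = 0.0467). Zap70 went the other way, with 1.89 against -0.63 to 0.44 (0.0015). These 4 kept the call without any 1 CAST/EiJ male.

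The cholesterol list differed too: 7 of its 25 genes had a lower effect in CAST/EiJ males, 0 a higher one, against 0.649% of all genes with a more negative effect. Pmvk differed by -1.26 (edgeR adjusted p = 9.01e-05), with effects of -0.60 to 0.27 in the other strains. Sqle differed by -1.97 (adjusted p = 0.0434), although NOD/ShiLtJ males had an effect of -2.34, close to the -2.51 of CAST/EiJ. Cyp3a11 differed by -1.87 from the mean of the others (adjusted p = 0.0138), but large falls were also seen elsewhere. Males of WSB/EiJ had -3.79, of NZO/HlLtJ (1 mouse on the high-fat diet) -3.20, of DBA/2J -3.04 and of 129S1/SvImJ -2.83. The remaining strains ranged from -1.17 in NOD/ShiLtJ to 0.33 in PWK/PhJ. Scd1, with -3.13 in CAST/EiJ, had a mean of -2.46 in the other strains, and the difference was not called (adjusted p = 0.811). The difference for Pmvk kept its call without any 1 CAST/EiJ male. That for Sqle lost it without each of the 6 in turn (highest adjusted p 0.158), and that for Cyp3a11 without CD mouse 3 or HFD mouse 1 (highest 0.085).

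Slc13a5 had 2.28 in CAST/EiJ against -3.44 to 1.27 in the others (edgeR adjusted p of the difference 0.00953, lost without CD mouse 3 at 0.079 and in a fit of the male libraries alone at 0.0558), and the lowest of these came from NZO/HlLtJ, with 1 mouse on the high-fat diet. Cyp2c67, a P450 of the Cyp2c cluster, rose from 26.3, 31.2 and 25.1 CPM to 99.6, 111 and 87.2 CPM in CAST/EiJ males, and its effect of 1.85 compared with -1.17 to 0.08 elsewhere (adjusted p of the difference 0.0105, 0.069 without CD mouse 3). Cyp3a59, of the same family as Cyp3a11, was at 34.6, 44.6 and 48.2 CPM on chow and at 87.3, 71.7 and 94.0 CPM on the high-fat diet. Its diet effect of 0.99 did not pass on its own (adjusted p = 0.0839), and the difference of 1.67 from the other strains did (0.0105; 0.0619 without HFD mouse 3). Igha, an immunoglobulin heavy chain, Treh, trehalase, and BC049987 also differed, by 2.30, -2.20 and -3.91. Their calls were lost without several single mice, Igha any but HFD mouse 2, Treh CD mouse 3 or any HFD mouse and BC049987 CD mouse 3, HFD mouse 1 or HFD mouse 3 (highest adjusted p 0.287, 0.331 and 0.599).

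**Figure D5:**
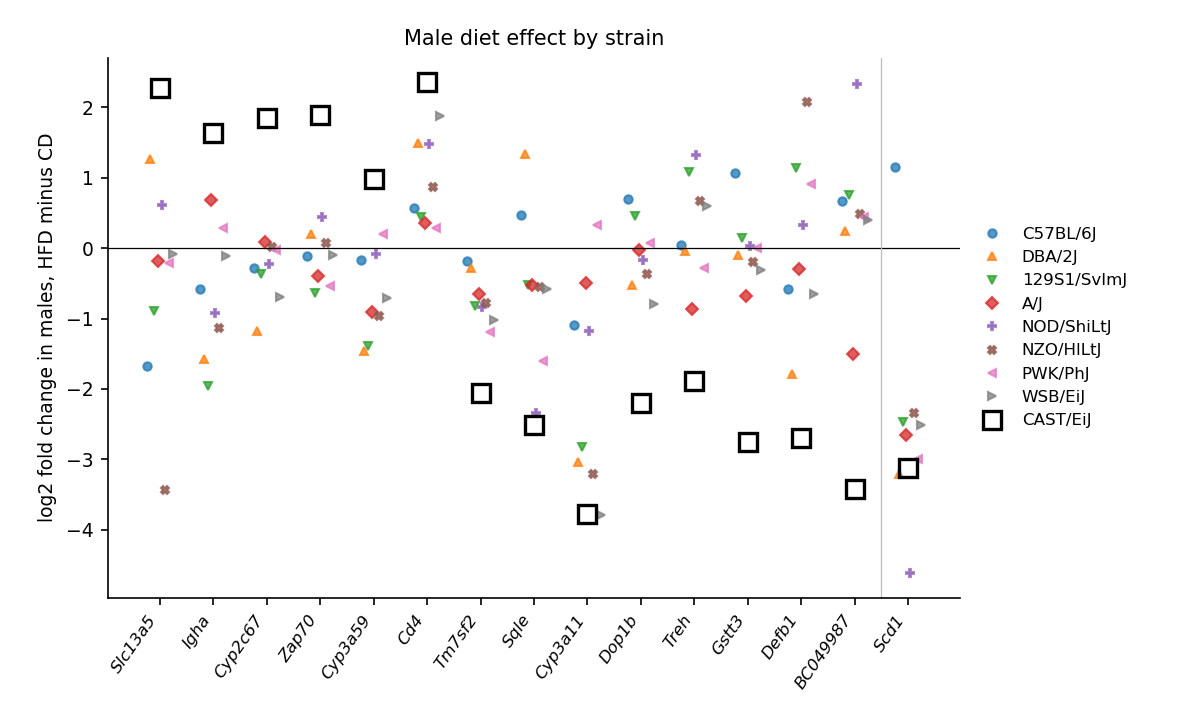
For 15 genes (x axis) each symbol is the fitted log2 fold change (HFD minus CD, y axis) in males of 1 strain, with CAST/EiJ as the open square and without error bars. CAST/EiJ is the outermost of the 9 strains for each of the first 14 genes but Cyp3a11, where WSB/EiJ lies at -3.79, and Scd1 on the right is below 0 in 8 of the 9.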

How the data were processed

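Liver RNA of 52 mice on the high-fat diet and 54 on chow (36 groups, 1 library a mouse) was sequenced from SMARTER mRNA-Seq libraries, per the labels' protocols. The authors deposited raw counts per gene for 14330 genes, and the 3 rows that name no gene were left out. FastQC, STAR 2.73a and edgeR 3.24.3 are named in the submitters' processing notes, and the genome build, the counting tool and the strand setting are not given in the sources used here. Symbols and positions of 14327 genes came from GENCODE M21 (GRCm38).

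Counts were scaled by TMM and fitted with edgeR 4.0.16 (R 4.3.3) as 36 group means, with 70 residual degrees of freedom. Diet effects and their differences were tested by the quasi-likelihood F test with Benjamini-Hochberg adjustment over all 14330 genes, at 0.05. CPM values are TMM-scaled, and SE is that of the fitted log2 fold change. Alternatives were library size scaling, DESeq2 size factors, DESeq2 1.42.0, limma 3.58.1, no dispersion trend, a filter at the 25th percentile, a minimum absolute log2 fold change of 0.5, smaller sets of samples, and each CAST/EiJ male left out in turn (for the difference between the sexes, each CAST/EiJ female too). On simulated counts for the diet effect in CAST/EiJ males (14330 genes, 200 changed), 78% of 2-fold and 100% of 4-fold changes were recovered. The changed genes were drawn from well-counted genes, and the simulated spread followed the dispersion trend, without spread particular to a gene. These shares therefore do not cover scarce genes or genes of wider spread.

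Genes were named by rule: the 12 largest rises and 12 largest falls among called genes with no overlap and a mean of at least 1 CPM in the higher group, up to 4 called genes per direction in each of 40 lists, up to 5 per direction for each difference, and a panel of 36 genes. The members and lists were chosen with earlier results of these data known. Uncalled list members outside the panel were named after their values were seen. P-values set each effect against a spread between mice that was estimated over all 36 groups, not from the 6 CAST/EiJ males alone. No pair of columns was identical, and lists were described by counts, without a test of their own. Some members of the lists enter the counts and are not reported here by name.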

Additional observations from a re-analysis of the deposited data

Results flagged for a closer look

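For 5 genes the effect of diet differed between CAST/EiJ males and females by the edgeR test of that difference. On the log2 scale the male effect minus the female effect was -3.1439 for Cyp3a11, -2.4697 for Adam11, -1.5196 for Dop1b, -1.2945 for Il3ra and 1.0727 for Arhgef10.

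The effect in CAST/EiJ males also differed from the mean effect in males of the other 8 strains, by the same kind of test, for the following genes, besides Pmvk and other members of the cholesterol list. It was higher by 2.8566 for Slc13a5, 2.296 for Igha, 2.1837 for Cyp2c67, 2.0185 for Zap70, 1.6744 for Cyp3a59 and 1.4362 for Cd4. For Cd4 the sign was positive in males of each of the 9 strains, from 0.29 in PWK/PhJ to 2.36 in CAST/EiJ (adjusted p of the difference 0.0194), and the difference lost its call when any 1 CAST/EiJ male other than CD mouse 3 was left out (highest 0.0872). The difference was -3.9095 for BC049987, -2.8401 for Defb1, -2.7564 for Gstt3, -2.2024 for Treh, -2.1206 for Dop1b, -1.9701 for Sqle and -1.8654 for Cyp3a11.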

How the results depend on the processing

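The diet effect in CAST/EiJ males gave 619 genes, 176 from CAST/EiJ libraries alone, 360 from the 6 male libraries alone, and 131 to 717 with 1 mouse left out. Other settings gave 511 to 770. The difference between the sexes gave 5 genes, 3 with library size scaling, 12 with DESeq2, 0 from CAST/EiJ libraries alone by edgeR (540 at an unadjusted p under 0.05), and 1 to 69 with 1 mouse left out. The difference from other strains gave 160 genes, and 29 to 215 with 1 mouse left out. Of 108 genes named for the diet effect, 75 were called, and 23 of these kept the call in each setting tried. Of their 1606 values under other settings 229 lost and 9 gained a call. No called gene changed direction, while uncalled genes such as Dbp (-1.40 to 1.96) and Cpt1a (-0.06 to 0.16) crossed 0. The causes of these shifts were not tested. With 3 mice a group, smaller changes can be missed. No paired analysis was possible because the labels number animals individually and give the groups no shared replicate numbers.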

Other observations

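Several further groups gave few calls, to be read against the 2.49% of all genes that fell and the 1.83% that rose. The calls made up 3.70% of the glucose metabolism list and 5.26% of the proteasome list. They rest on 1 and 2 genes, too few to tell from the shares of all genes. In lipoprotein metabolism 1 of 25 genes rose and 2 fell. Apoc1, an apolipoprotein, rose (log2 fold change 0.89), and Mttp, which loads lipid onto apolipoprotein B, was among those that fell (-0.49). The call of Apoc1 was lost without CD mouse 2, HFD mouse 2 or HFD mouse 3, and that of Mttp without CD mouse 2 or any 1 HFD mouse (highest edgeR adjusted p 0.112 and 0.185). In bile acid metabolism 2 of 26 fell, Abcc3 and Slco1a4, an organic anion importer (-1.51; highest adjusted p 0.234, lost without CD mouse 3, HFD mouse 2 or HFD mouse 3). Cyp7a1, the rate-limiting enzyme of bile acid synthesis, had a log2 fold change of 0.79 and was not called (adjusted p = 0.716). Of 19 genes of the oxidative stress response 3 fell, Mt1, Tkt and Pgd, and the last 2 belong to the pentose phosphate pathway. Pgd (-0.58) lost its call without CD mouse 2 or 3 or HFD mouse 1 or 3 (highest 0.398). In glucose metabolism 1 of 27 rose, Gckr, the glucokinase regulator (0.67), which lost its call without any 1 mouse but HFD mouse 2 (highest 0.243). Of 38 proteasome genes 2 fell, Psmd4 (-0.78) and Psmd3 (-0.47). Psmd4 kept its call without any 1 mouse but lost it in 1 of the 9 other settings tried. Psmd3 lost its call without CD mouse 2 or HFD mouse 1 or 3 (highest 0.105).

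Several lists leaned one way with few or no calls. Of 43 interferon genes 42 had positive values, with a median log2 fold change of 0.29, and 1 rose (2.33%, against 1.83% of all genes), Ifit2, an interferon-induced protein (1.29), lost without CD mouse 2 or 3 or HFD mouse 1 or 3 (highest edgeR adjusted p 0.353). Of 24 genes of endoplasmic reticulum stress 22 had negative values, with a median of -0.50, and 0 were called in the edgeR fit of all libraries, with 9 at an unadjusted p under 0.05. Without CD mouse 1 that list gave 1 lower. Their summed level was 7460 to 18922 CPM on chow and 7265 to 8495 CPM on the high-fat diet, with overlap. Of 75 genes of oxidative phosphorylation 64 had positive values and 1 rose, Atp5j, a subunit of ATP synthase (log2 fold change 0.44), lost without CD mouse 2, HFD mouse 2 or HFD mouse 3 (highest adjusted p 0.254). Of 82 genes of the cytosolic ribosome 65 had negative values, and 0 were called in that fit, with 5 at an unadjusted p under 0.05. Library size scaling, or leaving out CD mouse 2, gave 1 lower. All 7 tested genes of antigen presentation had positive values, and 0 were called in that fit, with 2 at an unadjusted p under 0.05, while a fit of the 6 male libraries alone called 4 higher, as it did 169 of all 14330 genes. DESeq2 called 0 genes in the lists of endoplasmic reticulum stress, the ribosome and antigen presentation. The median over all genes was 0.01.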
